A study of Homo sapiens with 6 samples.

Results

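The immediate early and AP-1 genes described here are FOS, FOSB, FOSL1, FOSL2, JUN, JUNB, JUND, EGR1, IER3 and DUSP1. They were taken by gene symbol from a table of 26899 genes, and all 10 were present once and passed the filter on low counts, which left 15299 genes for testing. In order to examine how ANXA2 knockdown affects a kidney tubule cell, polyadenylated RNA of HK-2 cells had been sequenced in 6 libraries. HK-2 is an established human proximal tubule line immortalised by human papillomavirus 16. The 3 shCtrl libraries are titled wild type (WT) but described as shCtrl, so whether they received a control hairpin is not settled, and the 3 shANXA2 libraries are titled ANXA2 knockdown. All cells were grown with fetal bovine serum, and the protocol common to both groups includes plasmid transfection with Lipofectamine. No source used here gives the time between transfection and harvest. Nothing in the labels says that the replicates came from separate cultures, so the p-values below measure only the spread between these libraries, which may be technical.

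Immediate early genes are transcribed within minutes of growth factor, serum, stress or cytokine signals, from factors already present in the cell. FOS and JUN proteins pair through a leucine zipper to form AP-1, which binds DNA and regulates genes of proliferation, invasion and inflammation. JUN proteins can pair with each other, whereas FOS proteins need a JUN partner. Many immediate early mRNAs are short-lived, so their levels follow recent signalling, while FOSL1 and FOSL2 accumulate later and persist in growing cells.

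Library depth ranged from 24231267 to 34561675 counted reads, and the 10 genes together took 0.117% to 0.173% of them. The least deep library of each group was shCtrl replicate 1 and shANXA2 replicate 3 (28866835 reads). As a check of the labels, ANXA2 had 1598 ± 119 CPM (read counts brought to a common library size, with TMM scaling; SD, n = 3) in the shCtrl libraries and 1539 ± 21.3 CPM in the shANXA2 libraries. Its fold was 0.963 with a 95% interval of 0.857 to 1.08 and an edgeR adjusted p of 0.848. The transcript targeted was therefore not detectably lower, and every difference below is one between the libraries labelled shANXA2 and those labelled shCtrl. Of 10 proximal tubule markers, PAX8 (342.7 to 677 CPM) and GGT1 (208.4 to 280 CPM) were abundant, whereas LRP2, CUBN, AQP1, ANPEP and HNF4A each stayed below 0.5 CPM in all 6 libraries. Of the epithelial markers, KRT8 had 849.6 to 1343 CPM, KRT18 443.9 to 624.9 CPM and EPCAM 56.96 to 69.66 CPM, whereas CDH1 (E-cadherin) was nearly absent at 0.0612 to 0.554 CPM. CDH2 (N-cadherin) had 151.7 to 174.9 CPM in the shCtrl and 132 to 139 CPM in the shANXA2 libraries, without overlap (log2 fold change -0.25, edgeR adjusted p 0.605), and its part in the results was not tested. In bulk RNA, fewer cells of a type and less RNA per cell cannot be told apart.

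The promoters of 5 of the genes are printed to show matches to a few short motifs in the bases before the start. RefSeq promoter windows (250 bases before to 50 after the start, GRCh38.p14) were found for 8 of the 10 genes, all except FOSL1 and IER3. Each line gives the 130 bases before the start, on the strand of the gene and read 5′ to 3′, with matches in capitals. The motifs searched on both strands were the TATA box TATAAA, the cAMP response element TGACGTCA, the AP-1 site TGACTCA, its variant TGACATCA and the CArG box bound by SRF.
JUN, chr1:58784048-58784177, minus strand: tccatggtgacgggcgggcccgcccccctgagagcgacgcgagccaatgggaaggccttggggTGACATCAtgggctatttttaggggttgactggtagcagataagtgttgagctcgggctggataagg
EGR1, chr5:138465349-138465478, plus strand: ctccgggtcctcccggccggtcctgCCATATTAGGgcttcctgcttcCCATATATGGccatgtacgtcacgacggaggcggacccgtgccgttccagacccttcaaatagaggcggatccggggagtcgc
FOS, chr14:75278698-75278827, plus strand: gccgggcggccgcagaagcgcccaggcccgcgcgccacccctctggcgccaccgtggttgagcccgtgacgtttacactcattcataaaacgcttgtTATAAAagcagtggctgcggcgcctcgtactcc
JUNB, chr19:12791356-12791485, plus strand: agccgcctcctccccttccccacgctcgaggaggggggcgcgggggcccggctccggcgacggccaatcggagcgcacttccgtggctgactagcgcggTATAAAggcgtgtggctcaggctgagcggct
DUSP1, chr5:172771196-172771325, minus strand: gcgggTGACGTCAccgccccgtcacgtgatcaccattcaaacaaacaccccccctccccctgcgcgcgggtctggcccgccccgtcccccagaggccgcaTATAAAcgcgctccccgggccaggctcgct

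The capitals mark the variant AP-1 site of JUN (67 bases before the start), both CArG boxes of EGR1 (105 and 83 bases before), the TATA boxes of FOS, JUNB and DUSP1 (33, 31 and 30 bases before) and the cAMP response element of DUSP1 (125 bases before). Of the windows not printed, FOSB held a TATA box, JUND a cAMP response element and FOSL2 an AP-1 site that begins at base 5 of the transcript. Over all 35116 RefSeq windows, 11.5% held a TATA box, 1.85% a cAMP response element, 4.95% an AP-1 site, 2.61% the variant and 1.29% a CArG box. These matches describe letters in a short window and not occupied sites. Elements farther upstream, or with letters that differ from the motifs searched, are not marked. A stretch without capitals can therefore still hold other elements.

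The levels of the 10 genes were compared first, on the FPKM scale (fragments per kilobase of gene, brought to a common library size), which allows different genes to be set side by side. IER3 and FOSL1 were the most abundant, with means over the 6 libraries of 213.6 and 173.7 FPKM. JUN (62.56), JUND (51.34), FOSL2 (45.72), JUNB (33.81) and DUSP1 (30.77) formed a middle range of mean FPKM. FOSB (2.377), EGR1 (2.068) and FOS (0.6817) were the least abundant by mean FPKM. The gap between DUSP1 and FOSB was 12.9-fold, and their ranges over the libraries were apart. The ranges of FOSL1 and JUN were also apart, as were those of EGR1 and FOS. All other neighbours in this order overlapped in range. IER3 exceeded FOSL1 in 5 of 6 libraries, JUN exceeded JUND in 5, FOSL2 exceeded JUNB in 4, JUNB exceeded DUSP1 in 5 and FOSB exceeded EGR1 in 4, so the order within these neighbours was not the same in every library. JUND exceeded FOSL2 in all 6 although their ranges overlapped. The cells thus contained far more mRNA of the sustained FOS relatives than of FOS itself.

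**Figure D1:**
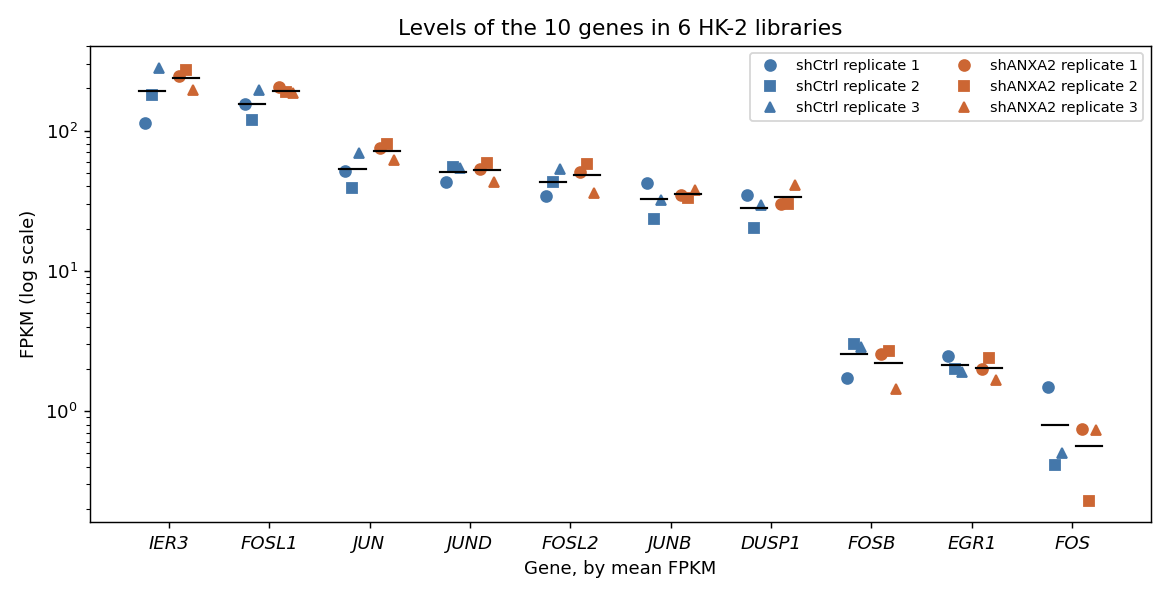
FPKM of each gene (log axis) in the 3 shCtrl libraries (blue) and the 3 shANXA2 libraries (orange), with marker shapes for replicates 1 to 3 and black bars for group means. The genes span 3 tiers, from FOS at 0.23 to 1.48 FPKM up to IER3 at 113.72 to 280.91 FPKM, and the groups overlap for each gene.

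In the FOS family, FOSL1 (which encodes FRA-1) supplied most of the FPKM. This rests on gene length, since FOSL1 and FOSL2 had 302.1 and 309.9 CPM in the shCtrl libraries. In the shANXA2 libraries they had 375.9 and 348.7 CPM. The lengths implied by reads and FPKM were 1948 bases for FOSL1 and 7193 bases for FOSL2. FOSL1 made up 76.65% ± 4.42 (SD, n = 3) of the summed FOS-family FPKM in the shCtrl libraries and 79.15% ± 3.66 in the shANXA2 libraries. The FPKM ratio of FOSL1 to FOS was 105 to 817 over the 6 libraries, with a median of 281. FOSL2 (FRA-2) made up 21.65% ± 4.17 and 19.71% ± 3.56, and FOSB and FOS together filled the remaining few percent. The exact two-sided permutation p for the difference in share lay between 0.4 (FOSB) and 0.6 (FOS and FOSL2), and 3 against 3 libraries cannot give a p below 0.1.

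The JUN family was more evenly filled. JUN, JUNB and JUND made up 38.42% ± 5.63, 23.83% ± 6.18 and 37.74% ± 8.02 of the summed JUN-family FPKM in the shCtrl libraries (SD, n = 3). In the shANXA2 libraries they made up 45.16% ± 1.82, 22.3% ± 3.79 and 32.53% ± 1.99. The share of JUN was 37.61%, 33.25% and 44.41% in shCtrl replicates 1 to 3 and 45.93%, 46.48% and 43.08% in shANXA2 replicates 1 to 3, so shCtrl replicate 3 lay within the shANXA2 range. The exact two-sided permutation p was 0.2 for JUN, 0.7 for JUNB and 0.4 for JUND. Leaving out shCtrl replicate 2, in which JUND alone took 46.77%, reduced the difference in the JUN share from 6.738 to 4.15 percentage points, while that of JUND went from -5.21 to -0.694. In the other direction, the JUN difference was 9.733 without shCtrl replicate 3 and the JUND difference -8.367 without shCtrl replicate 1. The JUNB difference of -1.529 points became 2.035 without shCtrl replicate 1.

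**Figure D2:**
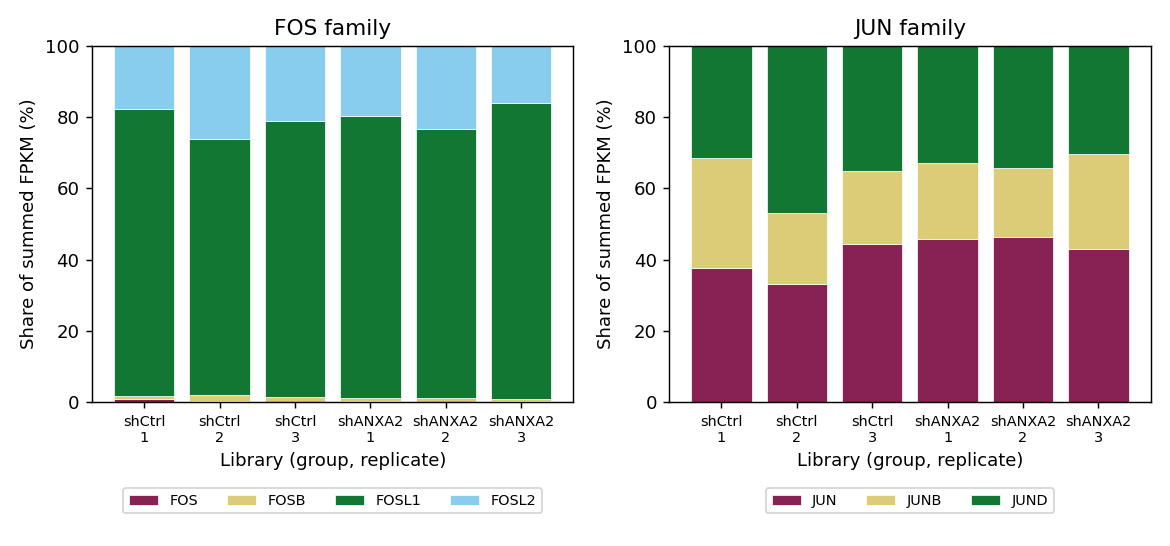
Share (%) of each gene in the summed FPKM of the FOS family (left) and of the JUN family (right), 1 bar per library. FOSL1 takes 71.89% to 82.92% of the FOS family in every library, while JUN, JUNB and JUND each take a sizeable part of the JUN family.

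To determine whether the genes differed between the labels, each was read from an edgeR quasi-likelihood fit (a test of counts against the spread between replicates) over all 15299 genes, with Benjamini-Hochberg adjustment. None of the 10 genes passed an adjusted p of 0.05, and neither did any other gene (0% of 15299 called). DESeq2, which was run on all 26899 genes without the low-count filter, called 32 genes and none of these 10. At an unadjusted p under 0.05, JUN was the single member called by edgeR, against 8.18% of all tested genes. DESeq2 and limma-voom also had 1 member at that level, against 4.78% of the 26899 genes for DESeq2 and 8.64% of the 15299 genes for limma-voom. The bases of these shares differ, so they are not directly comparable. Without the low-count filter edgeR had 4 members (FOSL1, JUN, IER3 and DUSP1) at that level, against 7.73% of 26899 genes. That base includes the low-count genes, so this share is not a like comparison for these members. JUN passed the adjusted threshold in that fit (edgeR adjusted p 0.0182). Its log2 fold change was 0.4554 there, against 0.4536 with the filter. None of the 10 genes had groups that did not overlap, compared with 7.94% of tested genes higher and 7.7% lower in all 3 shANXA2 libraries. The median log2 fold change of the 10 genes was 0.15, against -0.0065 for all tested genes, with 7 estimates above 0 and 3 below. Exact two-sided permutation p-values on log2 CPM ran from 0.2 (JUN) to 0.8 (JUND and EGR1).

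**Figure D3:**
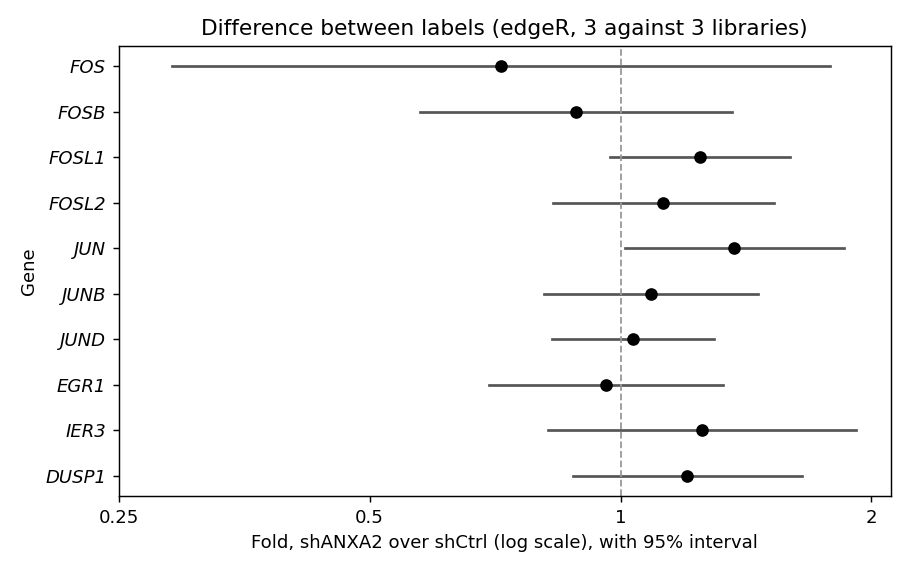
Fold of shANXA2 over shCtrl (log axis) for each gene, as the edgeR estimate (point) with its 95% interval (line, not adjusted for multiple testing). The estimates run from 0.719 for FOS to 1.37 for JUN, and the JUN interval is the one that stays above 1.

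FOS (ENSG00000170345.9, chromosome 14 from 75278826 to 75282230, plus strand, 4 exons) is the founding AP-1 subunit and among the most transient mRNAs of the serum response. It held 113, 41 and 48 reads in shCtrl replicates 1 to 3 and 79, 24 and 65 reads in shANXA2 replicates 1 to 3, which corresponded to 4.63, 1.25 and 1.54 CPM and to 2.32, 0.727 and 2.25 CPM. The highest library was a shCtrl library and the lowest a shANXA2 library, but of the other 4 both shCtrl libraries lay below both shANXA2 libraries, against the direction of the fold. The fold was 0.719 with a 95% interval of 0.29 to 1.79 and an adjusted p of 0.828. FOS was the member with the widest range, 6.37-fold from lowest to highest library. This direction rested on shCtrl replicate 1, since the log2 fold change went from -0.48 to 0.34 without it.

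FOSB (ENSG00000125740.13, chromosome 19 from 45467995 to 45475179, plus strand) encodes a further FOS protein with an activating and a truncated form, which gene counts do not separate. It had 10.2, 17.6 and 16.7 CPM in the shCtrl libraries and 15.2, 15.8 and 8.38 CPM in the shANXA2 libraries. The low values came from 1 library of each group. The fold was 0.885 (95% interval 0.576 to 1.36, adjusted p 0.866), and without shANXA2 replicate 3 the log2 fold change moved from -0.18 to 0.063.

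FOSL1 (ENSG00000175592.8, chromosome 11 from 65892049 to 65900573, minus strand) is a FOS relative known for invasion and survival programmes in epithelial cells and is itself a target of AP-1. Its abundance was 303.8, 227.2 and 375.3 CPM in the shCtrl libraries and 399, 369.5 and 359.2 CPM in the shANXA2 libraries. The shANXA2 libraries were tightly grouped, and shCtrl replicate 3 fell among them. The fold was 1.24 with an interval of 0.97 to 1.59 and an adjusted p of 0.626, and the log2 fold change was 0.15 without shCtrl replicate 2 and 0.50 without shCtrl replicate 3.

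FOSL2 (ENSG00000075426.11, chromosome 2 from 28392448 to 28417317, plus strand), the other sustained FOS relative, had 246.5, 303.7 and 379.4 CPM against 369.4, 419.1 and 257.7 CPM. The groups overlapped over most of their ranges, and the fold was 1.13 (interval 0.83 to 1.53, adjusted p 0.814). The log2 fold change of 0.17 became 0.021 without shANXA2 replicate 2 and 0.35 without shANXA2 replicate 3.

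JUN (ENSG00000177606.6, chromosome 1 from 58776845 to 58784048, minus strand, 1 exon) is the main transactivating JUN protein and switches on its own promoter through AP-1. The CPM of JUN was 192.8, 144.4 and 257.9 in the shCtrl libraries and 282.9, 302.6 and 229.3 in the shANXA2 libraries. A single crossing, shCtrl replicate 3 above shANXA2 replicate 3, kept the groups from separating. The fold was 1.37 with a 95% interval of 1.01 to 1.85, an unadjusted p of 0.0433 and an adjusted p of 0.608. Over 17 alternatives the log2 fold change of JUN stayed between 0.27 and 0.69 and its adjusted p ran from 0.0182 (without the low-count filter) to 0.988. The lowest estimate came without shCtrl replicate 2 and the highest without shCtrl replicate 3.

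JUNB (ENSG00000171223.5, chromosome 19 from 12791486 to 12793315, plus strand, 1 exon) is a weaker activator that can restrain JUN. It had 81.6, 44.6 and 61.4 CPM in the shCtrl libraries and 67.3, 64.1 and 72.6 CPM in the shANXA2 libraries, so the shCtrl libraries held both extremes. The fold was 1.09 (interval 0.809 to 1.46, adjusted p 0.866), and the log2 fold change turned to -0.07 without shCtrl replicate 2. An exon of HOOK2 on the opposite strand overlaps JUNB by 259 bases, and HOOK2 held 2220 reads in all, against 1458 to 2295 JUNB reads per library. The strand setting of the counting is not given in the sources used, so reads of this overlap are uncertain.

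JUND (ENSG00000130522.5, chromosome 19 from 18279694 to 18281622, minus strand, 1 exon) is the constitutive JUN family member and is known for changing little on stimulation. Its values of 84.8, 106.9 and 107.1 CPM against 106.5, 117.7 and 85.2 CPM were the narrowest of the 10 genes, spanning 1.39-fold. The fold was 1.03 with an interval of 0.828 to 1.29 and an adjusted p of 0.935. The log2 fold change of 0.05 turned to -0.051 without shCtrl replicate 1 and to -0.052 without shANXA2 replicate 2.

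EGR1 (ENSG00000120738.7, chromosome 5 from 138465479 to 138469303, plus strand) encodes a zinc finger factor induced through SRF and its ETS cofactors. Between 160 and 263 EGR1 reads were counted per library. Its abundance was 8.28, 6.52 and 6.29 CPM in the shCtrl libraries and 6.71, 7.97 and 5.54 CPM in the shANXA2 libraries, with both groups interleaved. The fold was 0.961 (interval 0.695 to 1.33, adjusted p 0.95). Without shCtrl replicate 1 the log2 fold change went from -0.058 to 0.076, and without shANXA2 replicate 3 it went to 0.066.

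IER3 (ENSG00000137331.11, chromosome 6 from 30743199 to 30744548, minus strand) encodes a small stress-induced protein that modulates survival and is a known NF-kB target. The CPM of IER3 was 163.9, 251.5 and 402.4 in the shCtrl libraries and 357.2, 388.4 and 278.9 in the shANXA2 libraries. Both the lowest and the highest library belonged to shCtrl, a 2.45-fold range. The fold was 1.25 with an interval of 0.818 to 1.92 and an adjusted p of 0.741, and the log2 fold change was 0.065 without shCtrl replicate 1 and 0.72 without shCtrl replicate 3. The antisense gene IER3-AS1 overlaps an IER3 exon by 440 bases but held 73 reads over the 6 libraries.

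DUSP1 (ENSG00000120129.5, chromosome 5 from 172768096 to 172771195, minus strand) encodes a nuclear phosphatase that switches off p38, JNK and ERK and so ends the signals that induce it. It had 74.6, 42.3 and 62.6 CPM in the shCtrl libraries and 65.1, 64.2 and 86.5 CPM in the shANXA2 libraries. The groups overlapped, and the fold was 1.2 (interval 0.877 to 1.65, adjusted p 0.718). The log2 fold change was 0.07 without shCtrl replicate 2 and 0.46 without shCtrl replicate 1.

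The 10 genes did not move together from library to library. FOSB, FOSL2 and JUND were lowest in shCtrl replicate 1 and shANXA2 replicate 3, an arrangement found for 13.9% of tested genes. JUNB and DUSP1 had their highest values in the same 2 libraries, an arrangement found for 11.8% of tested genes. FOS was highest in shCtrl replicate 1 (1.32 above its mean on the log2 CPM scale), where IER3 was lowest (-0.84 from its mean). JUN, FOSL1, JUNB and DUSP1 were lowest in shCtrl replicate 2, at -0.66, -0.55, -0.52 and -0.61 from their means. That library was the lowest for 25.5% of all tested genes. Among the other immediate early genes, KLF2, KLF10, GADD45B, ARC, RHOB, CSRNP1, CYR61 and CTGF shared the arrangement of JUNB and DUSP1, and KLF4 and KLF6 that of FOSB. These arrangements were described after the values were seen.

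**Figure D4:**
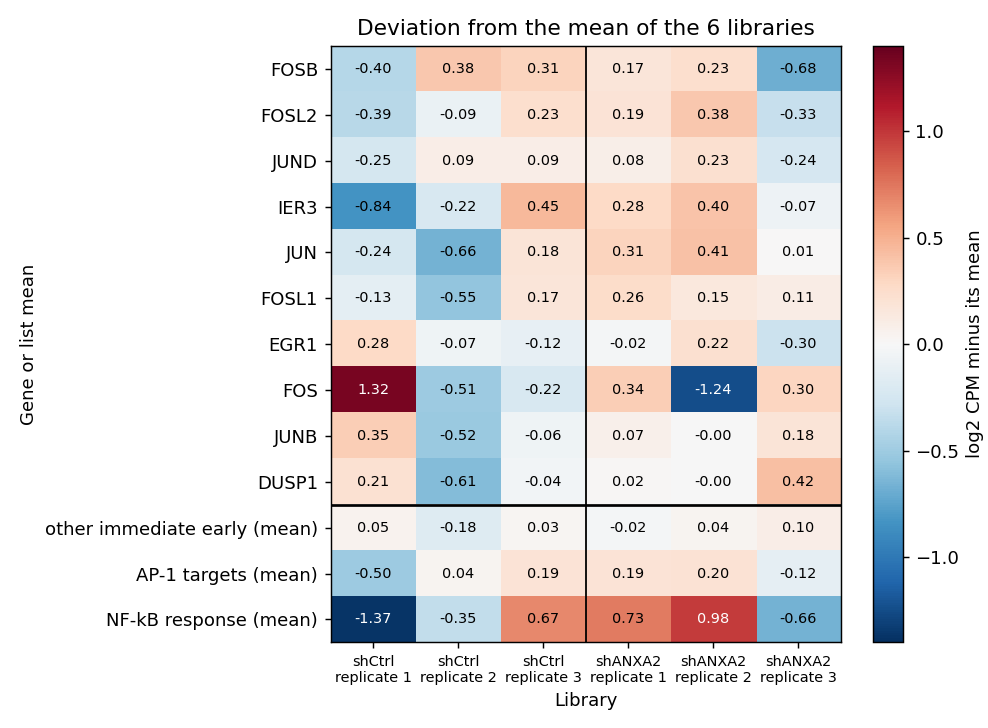
Log2 CPM minus its mean over the 6 libraries for each of the 10 genes (upper rows) and for the mean of 3 gene lists (lower rows), by library, with the groups parted by a vertical line. In shCtrl replicate 1 FOS lies 1.32 above its mean, whereas IER3 lies at -0.84 and the NF-kB response list at -1.37, and no row splits cleanly at the line between the groups.

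A set of NF-kB response genes varied over the libraries far more than the AP-1 genes. The mean log2 CPM of its 13 tested members, relative to the mean over the libraries, was -1.37 in shCtrl replicate 1, -0.35 in shCtrl replicate 2 and -0.66 in shANXA2 replicate 3. It was 0.67, 0.73 and 0.98 in shCtrl replicate 3 and in shANXA2 replicates 1 and 2. These are the libraries in which IER3, FOSL2 and JUN were at their highest. The 2 least deep libraries were the 2 lowest for this list, and the part of depth or of culture state in these values was not tested. For markers of other cells, leukocyte genes (CD14 and LYZ) summed to 1.16 to 2.54 CPM in the shCtrl and 1.87 to 3.46 CPM in the shANXA2 libraries, nearly all of it CD14, with LYZ at 0 in 2 libraries. Fibroblast genes (4 of 5 present) summed to 29.5 to 38 CPM and 30.6 to 31.2 CPM. Most of it was LUM (21 to 27.2 CPM over the 6 libraries), then COL1A1 (4.5 to 10.6 CPM). PDGFRB had at most 0.943 CPM and DCN at most 0.246 CPM, with DCN at 0 in shANXA2 replicate 2. Endothelial genes (PECAM1 and CDH5) summed to at most 0.394 CPM. The part of other cells in the results was not tested.

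Replicates of one group spread widely for these genes. The pooled within-group SD of log2 CPM had a median of 0.335 over the 10 genes, compared with 0.224 over all tested genes and 0.155 over the 8915 tested genes with a mean of at least 10 CPM. FOS and EGR1 were themselves below that mean. Related lists spread about as widely, so the spread was not particular to the 10 genes. Their medians were 0.314 (other immediate early genes), 0.345 (AP-1 targets) and 0.281 (MAPK feedback inhibitors). FOS had the largest SD (0.947, above that of 95.4% of tested genes), followed by IER3 (0.491) and FOSB (0.472), and JUND the smallest (0.217, above 48.7%). The SD that counting alone gives was 0.207 for FOS, 0.101 for EGR1 and 0.0145 to 0.0737 for the other 8 genes, so each gene spread beyond its counting error. When each library was left out in turn, the median of the 10 genes ran from 0.256 (without shCtrl replicate 2) to 0.38 (without shANXA2 replicate 1), against 0.201 to 0.246 for all tested genes. No test was made of this difference.

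**Figure D5:**
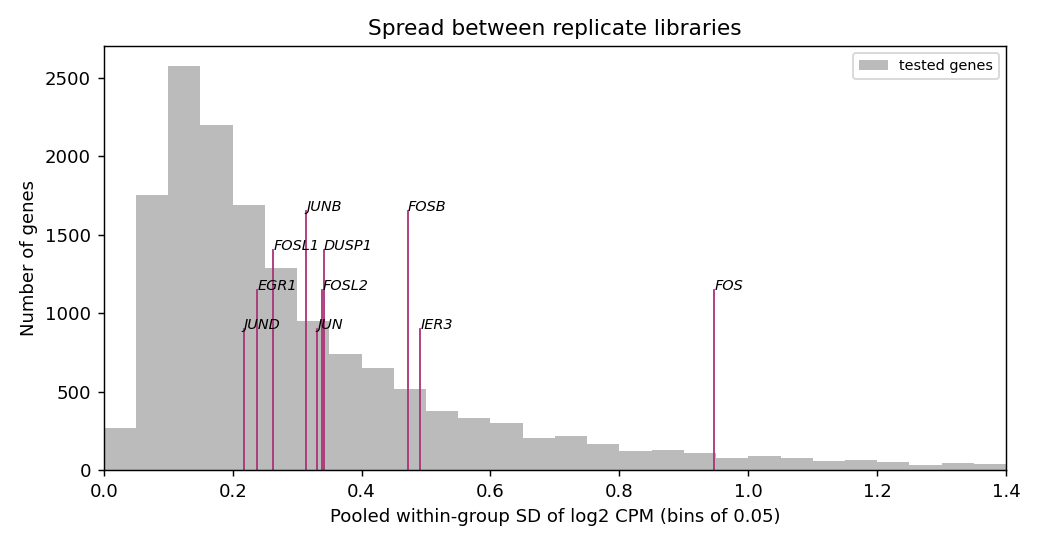
Number of tested genes by pooled within-group SD of log2 CPM (grey, bins of 0.05), with a line at the SD of each of the 10 genes at arbitrary heights. JUND at 0.217 lies near the median of all genes and FOS at 0.947 in the tail (167 genes beyond 1.4 are not drawn).

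The genes whose profile over the 6 libraries was most like the mean of the 10 genes were PRRC2A, C7orf49, LLGL1, ECM1 and ARHGAP39, with root mean square differences of 0.0241 to 0.0309 in centred log2 CPM. That mean profile was itself shallow, from -0.28 in shCtrl replicate 2 to 0.17 in shANXA2 replicate 1. For FOS, the member of widest range, the nearest were PCDH7, ADAMTS15, BCYRN1, EVPL and ZFHX4-AS1, with larger differences of 0.347 to 0.461. In both cases 8907 genes with a mean of at least 10 CPM were ranked.

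The other genes of the pathway were then examined, of which none passed an adjusted p of 0.05. Of 26 other immediate early genes 24 were tested, 18 with estimates above 0 and 6 below, and the median log2 fold change was 0.12. NR4A3 and NR4A1, orphan nuclear receptors induced within minutes, had the largest estimates (-0.68 and 0.50) but stayed near or below 1 CPM. PPP1R15A, a stress-induced regulator of eIF2 phosphorylation named after its values were seen, was the member with an unadjusted p under 0.05. It had 243.2, 260.4 and 249.3 CPM in the shCtrl libraries and 309.6, 314.5 and 316.8 CPM in the shANXA2 libraries, without overlap (log2 fold change 0.32, edgeR adjusted p 0.599). Of the 24 tested, 3 (PPP1R15A, IER2 and NR4A1) were higher without overlap between the groups and 0 were lower, where 7.94% and 7.7% of all tested genes were. EGR3 and EGR4 were not tested, each with at most 0.139 CPM in a library.

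Among 14 other bZIP partners of AP-1, 12 were tested with 4 estimates above 0 and 8 below (median -0.042). BATF2 had 0.459 to 0.574 CPM in the shCtrl and 0.703 to 1.77 CPM in the shANXA2 libraries (log2 fold change 1.24, edgeR adjusted p 0.605), and CREM, a cAMP-responsive factor, had a log2 fold change of 0.40. ATF3, the stress-induced partner of JUN, had 31.5 to 46 CPM against 40.1 to 44 CPM. Of the 12, BATF2 and CREM were higher and ATF2 lower without overlap, where 7.94% and 7.7% of all tested genes were. Of 13 feedback inhibitors of MAPK signalling 12 were tested, 9 with estimates above 0 (median 0.11). The largest were SPRY1 (0.73) and DUSP2 (0.47), and DUSP6, the ERK phosphatase, ranged from 9.25 to 27.2 CPM with overlapping groups.

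Upstream, the 18 MAPK kinases split evenly into 9 estimates above and 9 below 0 (median -0.0041), led by MAP2K6 (0.43) and RPS6KA3 (-0.35). SRF and its cofactors had a median of 0.0082 over 6 genes, with MKL2 at -0.45 and ELK4 at -0.22. The 8 AU-rich element binding proteins, which govern decay of FOS-type mRNAs, had a median of 0.0085, with the largest estimates for TIA1 (-0.25) and ZFP36 (0.14). Without overlap between the groups were 1 higher (ARAF) and 3 lower kinases (MAPK9, MAPK14 and RPS6KA3), 1 lower SRF cofactor (MKL2) and none of the binding proteins. Over all tested genes, 7.94% were higher and 7.7% lower without overlap. The replicate spread of these lists was small by their median within-group SD. It was 0.126 for the kinases, 0.156 for SRF and its cofactors and 0.12 for the binding proteins. Single members spread more widely, with an SD of 0.715 for ELK3 and 0.443 for MAP2K6.

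Of 15 AP-1 target genes 13 were tested, 10 with estimates above 0 and 3 below (median 0.13). MMP1, the interstitial collagenase, had 13.4, 22.9 and 12.4 CPM in the shCtrl libraries and 9.61, 10.2 and 10.9 CPM in the shANXA2 libraries, the direction opposite to the median (log2 fold change -0.67, adjusted p 0.599). IL6 ranged from 133.8 to 862.7 CPM and from 334.4 to 1176 CPM, with a log2 fold change of 0.55 and an adjusted p of 0.806. All 13 tested NF-kB response genes had estimates above 0 (median 0.62), as had 7495 of all 15299 tested genes. The largest were CXCL3 (1.03) and TNFAIP3 (0.76), and the smallest edgeR adjusted p was 0.605. The mean of the list was low in shCtrl replicates 1 and 2 and in shANXA2 replicate 3. Genes that vary together over the libraries do not give 13 separate observations. Their median within-group SD was 0.833, and 1 of the 13 (NFKBIE) was higher without overlap. MMP1 was the 1 AP-1 target without overlap, and none of the feedback inhibitors was. The shares of all tested genes without overlap were 7.94% higher and 7.7% lower.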

How the data were processed

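Raw read counts per gene were deposited by the authors for 6 libraries, 1 column each, together with FPKM values made by the authors (26803 genes). Per the labels, bcl2fastq, TopHat2 and edgeR and the build GRCh38 were used, with versions, counting program, annotation and strand setting not given in the sources used here. Counts were tested with edgeR 4.0.16 in R 4.3.3 (quasi-likelihood, TMM scaling, low-count filter with a minimum of 10 and a total of 15, 2 groups of 3, no covariates, two-sided, Benjamini-Hochberg over 15299 genes, threshold 0.05). Log2 CPM used a prior count of 2, and CPM was scaled to reads in tested genes. Intervals cover 95%. Replicates were not duplicates, as their chi-square per degree of freedom was 9.64 to 49.7. Positions came from GENCODE on GRCh38. The fits, with DESeq2 1.42.0 and limma 3.58.1 as alternatives, were tested on simulated data. These had the same spread setting for every gene and changes larger than the estimates of the 10 genes. They therefore do not measure how well differences of that size are detected.

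The members and lists were chosen with earlier results of these data known. All 10 members were named, with the 2 largest absolute fold changes of each other list and the 5 nearest profiles by root mean square difference. CDH2, IER2, ATF2, ATF3, ARAF, MAPK9, MAPK14, ELK3, NFKBIE, DUSP6, PPP1R15A and the genes named for their arrangement over the libraries were chosen after their values were seen. CYR61, CTGF, MKL1 and MKL2 are older symbols of CCN1, CCN2, MRTFA and MRTFB, and C7orf49 is named as the file gives it. CXCL1 and the marker genes COL1A2, VWF and KDR were not analysed here.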

Additional observations from a re-analysis of the deposited data

How the results depend on the processing

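Alternatives were other scalings (RLE, upper quartile, library size), other filters, DESeq2, limma-voom, limma-trend on log2(FPKM + 1) and log2(FPKM + 0.1), the replicate block and the omission of each library. Leaving out the least deep library of each group together was chosen after the data were seen. For the count of genes called, 0 with edgeR, the values were 165 with edgeR without the low-count filter and 32 with DESeq2, also run without it. They were 6 with 2 against 2 libraries, and 0 to 4 when 1 library was left out (4 without shANXA2 replicate 2). The count of members called was 0 except with edgeR without the low-count filter, where it was 1 (JUN), and the cause was not tested. The median log2 fold change of the 10 genes was 0.0881 to 0.2067 when 1 library was left out and 0.2035 with 2 against 2.

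Of 170 estimates of single members, 160 had the sign and the call given above, 1 became significant and 9 changed sign. All members that changed sign had intervals spanning no change. Without shCtrl replicate 1 the log2 fold change was 0.3356 for FOS, -0.05107 for JUND and 0.07639 for EGR1. JUNB was -0.07007 without shCtrl replicate 2, JUND -0.05207 without shANXA2 replicate 2, and FOSB 0.06297 and EGR1 0.06578 without shANXA2 replicate 3. With 2 against 2 libraries FOS was 0.1289 and EGR1 0.1979. Ranges over the omissions of 1 library were -0.7946 to 0.3356 for FOS, -0.3797 to 0.06297 for FOSB, -0.07007 to 0.3606 for JUNB, -0.05207 to 0.172 for JUND and -0.1916 to 0.07639 for EGR1. Shares of the FOS and JUN families moved by less than the SD between replicates when 1 library was left out, although the differences in the shares of FOS, FOSL2 and JUNB, which were within the replicate spread, changed sign in some omissions.

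With the replicate number as a block, 0 genes and 0 members were called and the median was 0.1646. Deviations of libraries with the same number correlated at -0.0616, 0.118 and -0.203 across genes, and those with unlike numbers at -0.226 to 0.217. No pairing by number showed in these values, but 3 libraries per group cannot exclude it. FOS, with 24 to 113 reads per library, was the member most limited by depth.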
